A study of Homo sapiens with 8 samples.

Results

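The variant and linker histones whose mRNAs are made outside S phase were examined in 2 human acute myeloid leukaemia lines given cinobufagin, a toad-venom steroid that binds the Na+/K+-ATPase. The set was defined by gene symbol as H3F3A, H3F3B, H2AFZ, H2AFV, H2AFX, H2AFY, H2AFJ and H1FX, and all 8 had a row among the 25593 gene rows of the deposited table. HL60, a promyelocytic line with an amplified MYC gene, was held in medium with 10% fetal bovine serum and exposed to 100 nM cinobufagin for 24 h or left untreated. Kasumi-1, a myeloblastic line with a RUNX1-RUNX1T1 fusion, was held in 20% serum and exposed or left untreated in the same way, so line and serum cannot be told apart. Each of the 4 groups held 2 libraries, and no label says that these came from separate cultures. The p-values therefore rest on library-to-library spread, which can be technical.

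Replication-dependent histone genes lie in clusters, are transcribed in S phase and give mRNAs that end in a stem-loop without a poly(A) tail. The variant genes lie outside the clusters and are transcribed throughout the cell cycle, mostly as polyadenylated mRNAs. Their proteins replace the core or linker histones, some at chosen places: H3.3 at active genes and in heterochromatin, H2A.Z beside promoters and macroH2A over silent chromatin. H2A.X is the form that is phosphorylated at DNA breaks.

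Of these genes, H3F3A (chromosome 1) and H3F3B (chromosome 17) encode the same H3.3 protein. Their coding sequences shared 78.6% of 411 bases, and both have a near copy with its own row in the table. The coding bases of H3F3AP4, a processed copy of H3F3A on chromosome 2, matched those of H3F3A at all 411 positions. H3F3C, a retrotransposed gene on chromosome 12 that encodes the H3.5 protein, matched H3F3B over 96.6% of the alignment. The first 60 coding bases, from the GENCODE v29 transcripts, are shown because they carry this relation. Capitals mark bases that differ from H3F3A, 13 in H3F3B, 12 in H3F3C and 0 in H3F3AP4.
H3F3A: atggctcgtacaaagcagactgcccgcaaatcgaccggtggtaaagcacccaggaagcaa
H3F3AP4: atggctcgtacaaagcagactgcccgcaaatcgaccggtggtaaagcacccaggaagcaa
H3F3B: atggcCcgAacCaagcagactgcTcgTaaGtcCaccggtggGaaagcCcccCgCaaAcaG
H3F3C: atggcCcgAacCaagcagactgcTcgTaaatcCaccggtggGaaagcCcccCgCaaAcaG

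The promoters of the genes whose changes differed most between the lines are shown next, with H2AFV beside its partner H2AFZ. Each stretch is the 250 bases before the start site in the RefSeq promoter table, all on the minus strand of GRCh38.p14, at chr17:75779780-75780029 for H3F3B, chr4:99950276-99950525 for H2AFZ, chr7:44848088-44848337 for H2AFV and chr11:119095466-119095715 for H2AFX. Capitals mark CCAAT on either strand, which reads ATTGG where it lies on the other strand, and TATAAA. The first is the box that the trimeric factor NF-Y binds, and the second is a TATA box sequence.
H3F3B: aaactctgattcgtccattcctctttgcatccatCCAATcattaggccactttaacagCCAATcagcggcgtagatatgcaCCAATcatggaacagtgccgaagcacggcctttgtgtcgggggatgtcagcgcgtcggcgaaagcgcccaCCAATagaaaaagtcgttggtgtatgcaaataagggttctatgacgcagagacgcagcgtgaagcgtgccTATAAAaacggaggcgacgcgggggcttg
H2AFZ: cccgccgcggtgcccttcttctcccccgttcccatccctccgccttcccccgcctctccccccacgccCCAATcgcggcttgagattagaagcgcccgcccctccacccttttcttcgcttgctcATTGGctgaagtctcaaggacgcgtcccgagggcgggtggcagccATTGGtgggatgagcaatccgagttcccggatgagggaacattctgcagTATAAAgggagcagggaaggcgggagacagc
H2AFV: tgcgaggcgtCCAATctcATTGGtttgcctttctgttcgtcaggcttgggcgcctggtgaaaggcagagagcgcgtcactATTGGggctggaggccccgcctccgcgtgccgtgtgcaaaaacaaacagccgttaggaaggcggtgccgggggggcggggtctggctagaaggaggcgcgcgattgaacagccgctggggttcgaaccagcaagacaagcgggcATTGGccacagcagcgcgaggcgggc
H2AFX: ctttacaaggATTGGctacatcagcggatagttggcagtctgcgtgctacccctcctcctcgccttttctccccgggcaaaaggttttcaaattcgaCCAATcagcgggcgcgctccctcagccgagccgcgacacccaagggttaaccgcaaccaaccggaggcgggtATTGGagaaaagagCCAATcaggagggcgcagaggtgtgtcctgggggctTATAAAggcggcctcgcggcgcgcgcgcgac

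All 8 genes had at least 1 RefSeq promoter window of 300 bases (250 before the start site and 50 after it). CCAAT stood on either strand in a window of 7 of these 8 genes, against 34.6% of all 35116 windows. At least 2 copies stood in a window of 6 genes, against 10.8% of all windows. H3F3B, H2AFV and H2AFX had 4 copies each and H2AFZ 3, and in H3F3B all 4 lay on the gene's own strand, at bases -216, -192, -169 and -99. TATAAA stood in a window of 4 genes (H3F3B, H2AFZ, H2AFX and H1FX), against 11.5% of all windows. In each of these 4 it lay on the gene's strand with its first base at -29 in H3F3B and at -31 in the others, a place where 2.16% of all windows hold it. CACGTG, the E-box bound by MYC, was in 0 of the 8 genes' windows and 7.26% of all, and ATTTGCAT, the octamer, was in that of H3F3B only and 1.77% of all. With cinobufagin in HL60 the 4 genes with TATAAA all rose. Of those without it, H2AFV and H3F3A rose, H2AFY fell and H2AFJ was not called. Whether the motif bears on these changes was not tested. H3F3A has 4 windows and H2AFY 2, so these shares for genes and for windows are not on the same base.

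Values are FPKM, which divides fragments by transcript length and by the library's mapped total, so levels may be set between genes. Per library, 10623 to 11371 genes stood at 1 FPKM or more, relative depth ran between 0.787 and 1.06, and replicates correlated across genes with Pearson's r of 0.995 to 0.996 when short RNAs were left out. RUNX1T1, CD34 and TRH, chosen as markers of Kasumi-1, matched the labels. RUNX1T1 had 16.1 to 20.8 FPKM in Kasumi-1 and 0 in HL60, and CD34 and TRH were likewise at 0 in HL60. The myeloid granule gene MPO was found in both lines, at 245 and 274 FPKM with cinobufagin and 3285 and 3369 FPKM untreated in HL60, and at 7379 and 7381 FPKM with cinobufagin and 6013 and 6098 FPKM untreated in Kasumi-1. MPO had been chosen as a marker of HL60, with ELANE and PRTN3, but was lower in HL60 in both conditions, so it did not mark that line. The values of ELANE, of PRTN3 and of KIT, which was chosen for Kasumi-1, are not given here. A difference was called when limma's p-value, adjusted by Benjamini-Hochberg over the 12511 genes tested, was under 0.05, with log2 changes taken on FPKM + 1. FPKM is relative within a library, and in bulk samples fewer cells of a type and less RNA per cell cannot be told apart.

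With cinobufagin, 6 of the 8 histone genes rose in HL60 and 1, H2AFY, fell. In Kasumi-1, 4 rose and 2 fell, and the H3.3 gene H3F3B and the H2A.Z gene H2AFZ were on opposite sides of 0 in the lines. Of the Kasumi-1 calls, only H1FX and H3F3B remained when untreated Kasumi-1 replicate 1, untreated replicate 2 or cinobufagin replicate 1 was left out, or when Kasumi-1 was fitted alone. The background is high. In HL60, 73.6% of all genes tested were called, 36.0% higher and 37.6% lower, and in Kasumi-1 26.3% were, 10.1% higher and 16.2% lower. The median log2 change of the 8 genes was 0.74 in HL60, against -0.01 for all genes tested, and 0.17 in Kasumi-1, against -0.04. Both comparisons use their own untreated libraries.

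**Figure D1:**
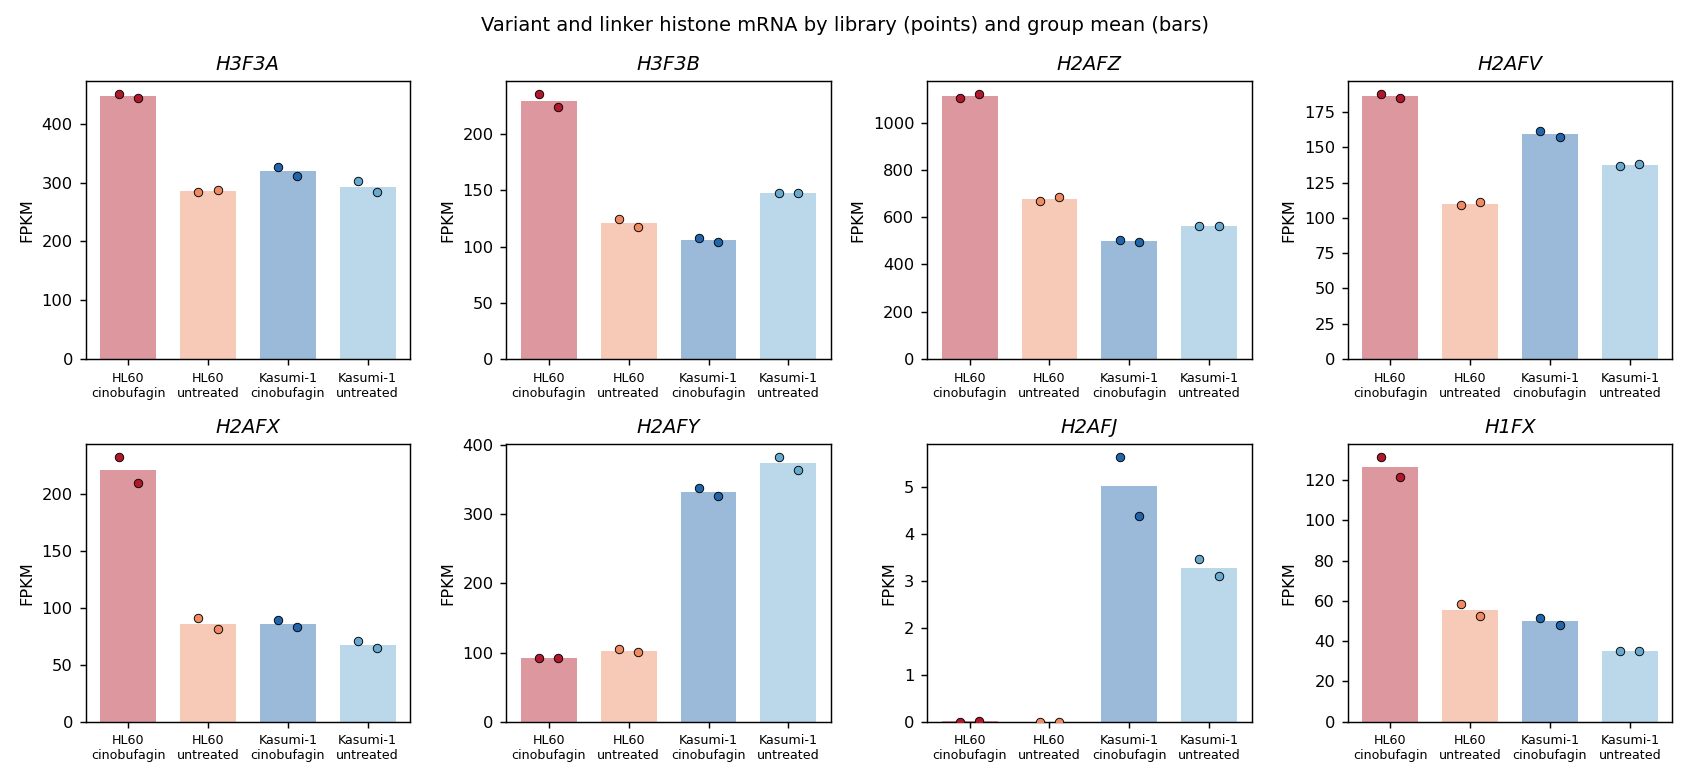
FPKM (vertical axes, each from 0) of the 8 histone genes in the 4 groups (horizontal axes); points are the 2 libraries of a group and bars their mean. H3F3B stood at 235 and 224 FPKM in HL60 with cinobufagin, against 125 and 117 untreated, and at 108 and 104 in Kasumi-1 with cinobufagin, against 148 and 147 untreated.

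H3F3B was the member that moved most differently. It had 235 and 224 FPKM in HL60 with cinobufagin, against 125 and 117 FPKM in untreated HL60. Kasumi-1 had 108 and 104 FPKM with cinobufagin, against 148 and 147 FPKM untreated. In HL60 both treated libraries were above both untreated ones and in Kasumi-1 both were below. H3F3B thus rose by 0.92 on the log2 scale in HL60 (SE 0.05, limma adjusted p = 8.42e-06) and fell by 0.47 in Kasumi-1 (SE 0.05, limma adjusted p = 0.0027). The difference of these changes, Kasumi-1 minus HL60, was -1.40 (SE 0.07, limma adjusted p = 1.9e-05). Within replicate number 1 it was -1.36 and within number 2 it was -1.43, though no label pairs these numbers across groups.

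H3F3A, the other source of H3.3, stood at 450 and 444 FPKM in HL60 with cinobufagin, against 284 and 288 FPKM untreated. It rose by 0.64 (SE 0.05, limma adjusted p = 5.3e-05). In Kasumi-1 its values were 327 and 312 FPKM with cinobufagin and 303 and 284 FPKM untreated, and the change of 0.12 was not called (SE 0.05, limma adjusted p = 0.146). The libraries of these groups did not overlap. Taken by replicate number, which no label pairs across groups, the change was 0.11 in number 1 and 0.14 in number 2. Other pairings were not taken. The change of H3F3A differed between the lines by -0.52 (limma adjusted p = 0.0013).

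The share of H3F3B in the sum of both H3.3 genes differed between the conditions in each line. It was 33.9% ± 0.56 with cinobufagin in HL60, against 29.7% ± 1.1 untreated, and 24.9% ± 0.13 with cinobufagin in Kasumi-1, against 33.5% ± 1.0 untreated (SD, n = 2 each). The sum itself was 677 ± 12 FPKM with cinobufagin in HL60, against 407 ± 2.6 untreated, and 425 ± 13 in Kasumi-1 with cinobufagin, against 441 ± 14 untreated. In Kasumi-1 the sums overlapped while the shares did not. These are descriptions with no test.

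The H3.3 rows are uncertain because of the copies shown at the start. H3F3AP4 was listed at 50.8% to 56.0% of the FPKM of H3F3A in every library, and H3F3C at 16.6% to 18.6% of that of H3F3B. H3F3AP4 rose with H3F3A in HL60, by 0.61 (limma adjusted p = 5.78e-05). H3F3C averaged 39.6 ± 0.92 FPKM in HL60 with cinobufagin, against 20.5 ± 1.5 untreated, and 19.4 ± 0.018 in Kasumi-1 with cinobufagin, against 26.3 ± 0.61 untreated. Whether reads of one gene were given to its copy was not tested. With each copy added to its gene, an alternative added after the data were seen, H3F3A changed by 0.63 in HL60 and 0.11 in Kasumi-1, and H3F3B by 0.93 and -0.47. The shares of H3F3B above were not worked out with the copies added.

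H2AFZ and H2AFV encode the H2A.Z.1 and H2A.Z.2 isoforms, whose coding sequences shared 80.4% of 387 bases. H2AFZ had the highest level of the set in every group. It stood at 1102 and 1119 FPKM in HL60 with cinobufagin, against 670 and 683 FPKM untreated, and rose by 0.71 (SE 0.05, limma adjusted p = 2.24e-05). In Kasumi-1 it stood lower with cinobufagin, at 502 and 496 FPKM, against 561 and 563 FPKM untreated. The fall of 0.17 on the log2 scale there (SE 0.05) only just passed the test, with a limma adjusted p of 0.0488. The call was lost without any one of the 8 libraries, where the adjusted p lay between 0.0726 and 0.158, and under each of the 3 rescalings of the libraries (0.0724 to 0.221). The difference between the lines, -0.89 (SE 0.07, limma adjusted p = 9.34e-05), was called under every alternative tried.

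H2AFV stood at 187 and 185 FPKM in HL60 with cinobufagin, against 109 and 111 FPKM untreated. It rose by 0.76 (SE 0.04, limma adjusted p = 8.06e-06). In Kasumi-1 it had 162 and 157 FPKM with cinobufagin, against 137 and 138 FPKM untreated, and rose by 0.21 (SE 0.04, limma adjusted p = 0.0147). That call was lost without untreated Kasumi-1 replicate 1 or 2 or cinobufagin replicate 1, where the adjusted p reached 0.069, and with a common sum (0.082). The share of H2AFV in both H2A.Z genes was 14.3% ± 0.26 with cinobufagin and 14.0% ± 0.016 untreated in HL60. In Kasumi-1 it was 24.2% ± 0.24 with cinobufagin, against 19.6% ± 0.068 untreated (SD, n = 2 each).

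**Figure D2:**
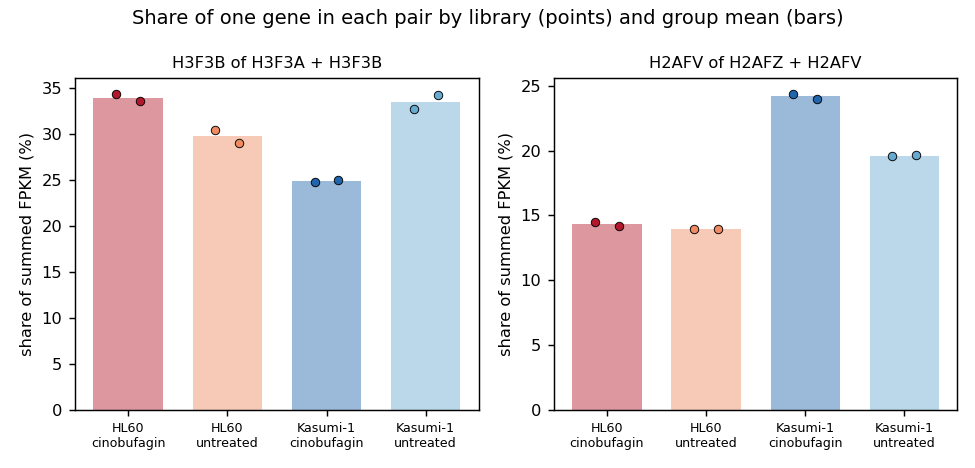
Share in percent (vertical axes) of H3F3B in H3F3A + H3F3B and of H2AFV in H2AFZ + H2AFV, by group; points are the 2 libraries of a group and bars their mean. The H3F3B share in Kasumi-1 was 24.8% and 25.0% with cinobufagin, against 32.8% and 34.2% untreated.

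H2AFX, which encodes the H2A.X protein phosphorylated at DNA breaks, showed the largest log2 change of the 8 in HL60. It had 232 and 209 FPKM with cinobufagin, against 90.7 and 81.0 FPKM untreated, and rose by 1.35 (SE 0.09, limma adjusted p = 1.42e-05). Its Kasumi-1 values were 89.3 and 82.7 FPKM with cinobufagin, against 70.5 and 64.7 FPKM untreated. The rise there was 0.34 (SE 0.09, limma adjusted p = 0.0305) and was lost when any 1 of the 4 Kasumi-1 libraries was left out (adjusted p between 0.0612 and 0.133), or with no filter on low values (0.101). The change was smaller in Kasumi-1 than in HL60 by 1.01 on the log2 scale (limma adjusted p = 0.000525). H2AFX mRNA is known to exist with a poly(A) tail and with a histone stem-loop, and these values do not separate the forms. DPAGT1, an N-glycosylation gene that overlaps H2AFX in the RefSeq annotation, fell by 1.13 in HL60, with 13.5 ± 0.80 FPKM with cinobufagin and 30.9 ± 1.1 FPKM untreated.

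H2AFY, the macroH2A1 gene, was the member of the set that fell in HL60. It had 92.2 and 92.6 FPKM with cinobufagin, against 105 and 101 FPKM untreated, and changed by -0.15 on the log2 scale (SE 0.05, limma adjusted p = 0.0287). The call was lost without untreated replicate 1 or either cinobufagin library of HL60 (adjusted p between 0.0852 and 0.154) and with median ratios (0.0649), and the sign turned to 0.03 when libraries were set to a common sum without short RNAs. In Kasumi-1 it had 337 and 327 FPKM with cinobufagin and 382 and 364 FPKM untreated, a log2 change of -0.17 that was not called (limma adjusted p = 0.0515). It was called there with a filter at 5 FPKM (0.0456), quantile normalization (0.0457) and a common sum (0.0301). The changes in the lines differed by -0.01 (SE 0.07, limma adjusted p = 0.875), or by -0.23 with a common sum (adjusted p = 0.0218), where the median of all genes was -0.19.

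H2AFJ, an H2A variant known to accumulate in senescent human fibroblasts, was close to 0 in HL60. It was listed at 0 and 0.0170 FPKM with cinobufagin and at 0 in both untreated libraries, so no fold is given there. Kasumi-1 libraries had 5.63 and 4.38 FPKM with cinobufagin, against 3.45 and 3.11 FPKM untreated. It rose by 0.48 (SE 0.11, limma adjusted p = 0.0213). The call was lost without either untreated Kasumi-1 library or without cinobufagin replicate 1 (adjusted p between 0.0543 and 0.0957), with a pseudocount of 0.1 (0.0608) and with no filter on low values (0.0746). H2AFJ passed the filter on low values only through Kasumi-1.

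H1FX, the linker histone gene that encodes H1.10, rose in both lines. It had 132 and 122 FPKM in HL60 with cinobufagin, against 58.7 and 52.3 FPKM untreated, and rose by 1.18 (SE 0.07, limma adjusted p = 1.26e-05). In Kasumi-1 it had 51.7 and 48.2 FPKM with cinobufagin, against 35.2 and 35.1 FPKM untreated, and rose by 0.49 (SE 0.07, limma adjusted p = 0.0058). The changes of H1FX differed by -0.68 between the lines (limma adjusted p = 0.0014). H1FX-AS1, which overlaps H1FX, was listed between 0.0880 and 0.785 FPKM over all libraries, and it is not known here whether the quantification used strand.

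**Figure D3:**
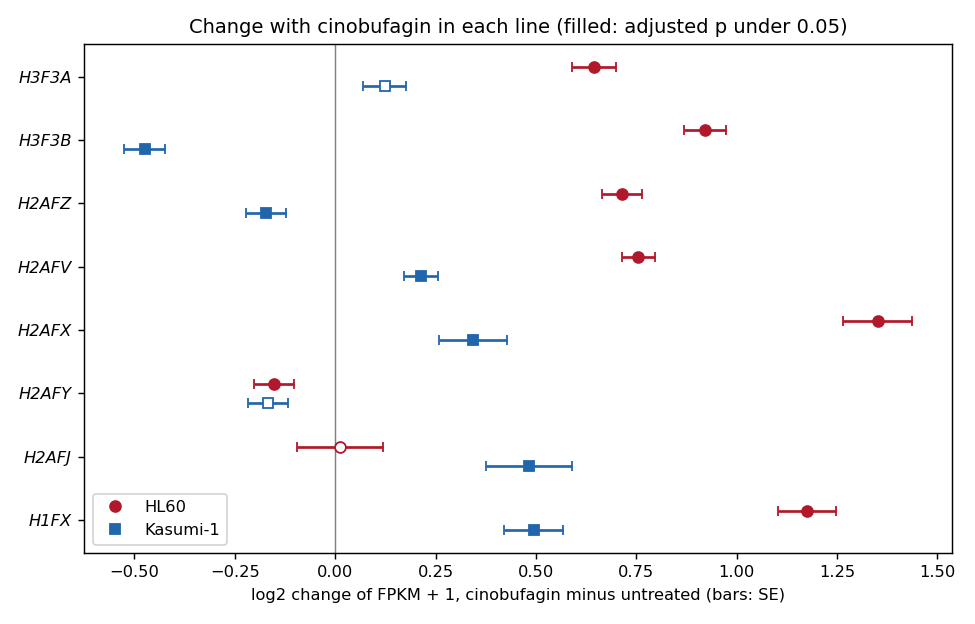
Log2 change of FPKM + 1, cinobufagin minus untreated (horizontal axis), of each histone gene in HL60 (circles) and Kasumi-1 (squares); bars are the SE and filled symbols have a limma adjusted p under 0.05. H3F3B stood at 0.92 in HL60 and -0.47 in Kasumi-1, while H2AFY stood at -0.15 and -0.17.

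In the test of the difference between the lines, 6 of the 7 genes that passed the filter within each line were called, all with a lower change in Kasumi-1. Of all genes tested 63.1% were called, 33.1% lower and 30.1% higher. The median difference was -0.68 for these 7 genes and -0.03 for all genes. H1FX, H2AFZ, H2AFX, H2AFV, H3F3A and H3F3B kept their calls under every alternative tried. H2AFJ is left out of this count, because its HL60 values were at or near 0 and its difference of 0.47 is its Kasumi-1 change set against them. Its call was lost when any one HL60 library or untreated Kasumi-1 replicate 2 was dropped (adjusted p between 0.0749 and 0.0922), and with a pseudocount of 0.1, no filter or quantile normalization (0.0542 to 0.149).

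Between the lines, the levels of the histone genes differed before any drug was given. In untreated cells 3 of the 7 genes other than H2AFJ were higher in Kasumi-1 than in HL60 and 3 were lower, while 69.7% of all genes were called, 35.9% higher and 33.8% lower. H2AFY averaged 373 ± 13 FPKM in untreated Kasumi-1 and 103 ± 3.3 FPKM in untreated HL60, a log2 difference of 1.85 (limma adjusted p = 3.38e-07). H2AFJ averaged 3.28 ± 0.24 FPKM in untreated Kasumi-1 and was listed at 0 in both untreated HL60 libraries. H2AFV was higher in Kasumi-1 by 0.32 and H3F3B by 0.28, while H1FX was lower by 0.64, H2AFX by 0.34 and H2AFZ by 0.27. H3F3A differed by 0.04 (SE 0.05, limma adjusted p = 0.573). The H2AFX call was lost without untreated HL60 replicate 1 or untreated Kasumi-1 replicate 2 (adjusted p 0.0662 and 0.0635).

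With cinobufagin in both lines, these 7 genes all differed, 1 higher and 6 lower in Kasumi-1, against 82.2% of all genes, 42.0% higher and 40.2% lower. H2AFY was again higher in Kasumi-1, by 1.83, and H2AFJ was at 5.63 and 4.38 FPKM there, against 0 and 0.0170 in HL60. H3F3B and H2AFV, higher in Kasumi-1 among untreated cells, were lower there among treated ones, by 1.11 and 0.22. The H2AFV difference was lost under quantile normalization (-0.09, adjusted p = 0.124). These comparisons share libraries with the drug comparisons and are no separate evidence.

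The order of the levels was led by H2AFZ in all groups. In HL60, treated and untreated, H3F3A and H3F3B came next. In Kasumi-1 H2AFY and H3F3A did, with H2AFY at 332 ± 7.5 FPKM with cinobufagin and 373 ± 13 FPKM untreated. This order takes each row as listed. H3F3AP4, at 50.8% to 56.0% of the FPKM of H3F3A, was not added to that gene. With it added, H3F3A would stand above H2AFY in Kasumi-1. H2AFJ closed the order in every group. Neighbours in the order had libraries that did not overlap, with 1 exception, H3F3B and H2AFX in HL60 with cinobufagin (means of 230 and 221 FPKM). H2AFY and H3F3A in Kasumi-1 with cinobufagin all but met. The lower H2AFY library there was at 326.8 FPKM and the higher H3F3A library at 326.7 FPKM. H2AFX was placed low in untreated HL60, at 85.9 ± 6.8 FPKM, below H2AFV and H2AFY, and above both with cinobufagin, at 221 ± 16 FPKM.

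Genes that place H3.3 and H2A.Z were called in both directions in HL60, where 36.0% of all genes tested were higher and 37.6% lower. In Kasumi-1, where 10.1% of all genes tested were higher and 16.2% lower, those called were all lower. The chaperones of H2A and H2B that were called were lower in both lines. Lists of chaperones, remodellers and related genes were used, and their counts are read against the shares of all genes given above. With Kasumi-1 fitted alone, 0 genes of H3.3 deposition, of H2A.X signalling at breaks and of histone mRNA 3' processing were called in Kasumi-1, and 1 of H2A.Z deposition. Of 7 genes of H3.3 deposition, 3 rose and 3 fell in HL60, and 0 rose and 2 fell in Kasumi-1. HIRA, the chaperone subunit that places H3.3 at active genes, fell in both lines, with 19.3 ± 0.035 FPKM with cinobufagin and 30.6 ± 1.2 untreated in HL60, and 13.8 ± 0.44 with cinobufagin and 17.3 ± 0.13 untreated in Kasumi-1. DAXX, which places H3.3 in heterochromatin together with ATRX, fell by 0.50 in HL60 and by 0.29 in Kasumi-1, where 4 alternatives ended the call. UBN1, a partner of HIRA, and ATRX rose in HL60, by 0.64 and 0.77. Another HIRA partner, CABIN1, fell by 0.77 in HL60.

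Of 20 tested genes that place or remove H2A.Z, 8 rose and 7 fell in HL60, with a median of -0.00, and 0 rose and 6 fell in Kasumi-1, with a median of -0.08. The helicases RUVBL1 and RUVBL2, shared by the SRCAP, p400 and INO80 complexes, had the lowest changes of the list in HL60. RUVBL1 averaged 10.4 ± 0.073 FPKM with cinobufagin and 59.7 ± 5.2 untreated in HL60, a fall of 2.41 on the log2 scale. In Kasumi-1 it averaged 37.2 ± 0.77 with cinobufagin and 56.0 ± 4.7 untreated, a fall of 0.58. RUVBL2 fell by 1.80 in HL60 and by 0.23 in Kasumi-1, where 9 of the alternatives ended the call. EPC1 and the acetyltransferase gene KAT5 rose in HL60, by 1.01 and 0.84.

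Of 8 chaperones of H2A and H2B, including the FACT subunits, 0 rose and 8 fell in HL60, with a median of -0.79, and 0 rose and 5 fell in Kasumi-1, with a median of -0.34. NPM3, a nucleoplasmin family gene, averaged 14.5 ± 2.8 FPKM with cinobufagin and 120 ± 6.1 untreated in HL60. NCL, which encodes the nucleolar protein nucleolin, averaged 200 ± 1.2 FPKM with cinobufagin and 592 ± 8.0 untreated in HL60, and 193 ± 2.5 with cinobufagin and 296 ± 11 untreated in Kasumi-1. The FACT subunit gene SUPT16H fell by 0.83 in HL60 and by 0.36 in Kasumi-1. Several of these genes, NCL and NPM3 among them, are also known for ribosome assembly.

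Of 5 chaperones that work with replication, 2 rose and 1 fell in HL60, and 1 rose and 2 fell in Kasumi-1. ASF1B, the proliferation-linked H3-H4 chaperone, rose by 0.79 in HL60 and by 0.27 in Kasumi-1, where 3 alternatives ended the call, while the CAF-1 subunit gene CHAF1B fell by 0.68 and 0.54. CHAF1A, another CAF-1 subunit, rose by 0.24 in HL60 and fell by 0.19 in Kasumi-1, where 10 alternatives ended the call. Among 10 high mobility group genes, 2 rose and 5 fell in HL60, and 1 rose and 4 fell in Kasumi-1. HMGB2, a DNA-bending protein of dividing cells, averaged 993 ± 63 FPKM with cinobufagin and 342 ± 23 untreated in HL60, and 319 ± 15 with cinobufagin and 225 ± 12 untreated in Kasumi-1. HMGN5, which binds nucleosomes and counters linker histones, fell by 1.45 in HL60 and by 0.46 in Kasumi-1, where 5 alternatives ended the call.

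Among 11 genes that act with H2A.X at DNA breaks, 4 rose and 5 fell in HL60, and 0 rose and 4 fell in Kasumi-1. PPM1D, a phosphatase that removes the mark from H2A.X, rose by 1.06 in HL60. TP53BP1, which binds chromatin at breaks, rose by 0.68 in HL60 and fell by 0.27 in Kasumi-1, a call that 11 alternatives ended. RAD50, of the MRN complex that senses breaks, fell by 1.10 in HL60 and by 0.36 in Kasumi-1, a call that 10 alternatives ended, and the ubiquitin ligase gene RNF8 fell by 0.88 and 0.37, with the Kasumi-1 call ended by 2. The kinase gene PRKDC, which phosphorylates H2A.X, fell by 0.43 in HL60 and by 0.42 in Kasumi-1, calls that 1 and 7 alternatives ended.

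Other histone genes gave few values. Of 11 further variant histones outside the clusters, 10 had a row and 2 passed the filter on low values, H3F3C and CENPA, the centromeric H3. CENPA had 30.6 and 27.4 FPKM with cinobufagin and 12.7 in both untreated libraries of HL60, and rose by 1.13, and in Kasumi-1 it averaged 11.5 ± 1.3 with cinobufagin and 10.8 ± 0.56 untreated. Of 6 replication-dependent linker genes, 1 passed the filter, HIST1H1C, which encodes H1.2. It rose by 2.11 in HL60, with 31.3 ± 1.3 FPKM with cinobufagin, against 6.50 ± 0.021 untreated. In Kasumi-1 it averaged 2.82 ± 0.74 with cinobufagin and 1.38 ± 0.54 untreated. Polyadenylated RNA was sequenced and mRNAs of this class end without a tail, so these values need not give the genes' full levels. Of 10 genes for the 3' end and decay of stem-loop histone mRNAs, 4 rose and 4 fell in HL60, and 0 rose and 2 fell in Kasumi-1. SLBP, which binds the stem-loop, rose by 0.38 in HL60, and CPSF3, the endonuclease that cuts there, fell by 1.12.

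**Figure D4:**
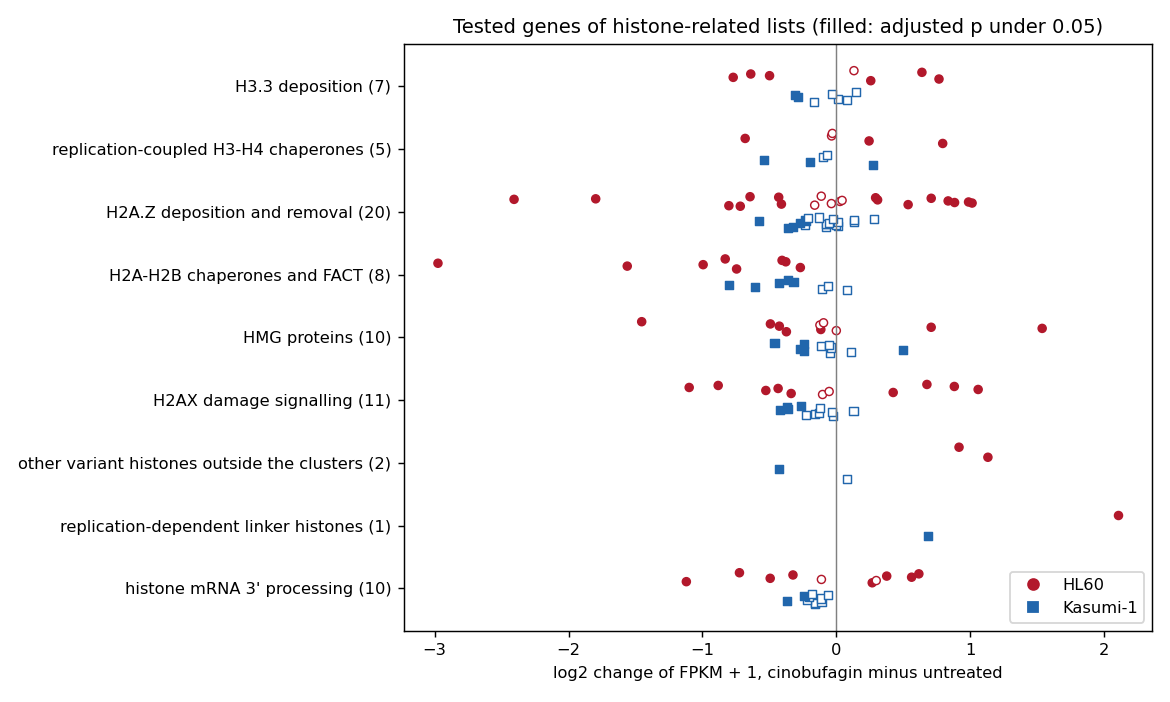
Log2 change of FPKM + 1, cinobufagin minus untreated (horizontal axis), of each tested gene of 9 histone-related lists (vertical axis, number tested in brackets) in HL60 (circles) and Kasumi-1 (squares); filled symbols have a limma adjusted p under 0.05. All 8 chaperones of H2A and H2B lay below 0 in HL60, where NPM3 stood at -2.98.

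The genes most like each histone gene were found by Pearson's r of log2(FPKM + 1) over the 8 libraries, which fall into 4 groups, so r mostly follows the group means and is given with no test. For H3F3B these were HNRNPM (r = 0.996), its own copy H3F3C (0.994) and CMTM1 (0.991). HNRNPM, a splicing factor, averaged 211 ± 0.39 FPKM in HL60 with cinobufagin, against 140 ± 1.2 untreated, and 129 ± 0.53 in Kasumi-1 with cinobufagin, against 155 ± 0.15 untreated. For H2AFX they included CCNL1 and NFKBIA, for H2AFZ they were MARS, ETV5 and PI4K2A, and for H3F3A P2RX4, TMBIM1 and GON4L. For H2AFV they were CYTH1, PTPRE and CNNM2, and for H1FX C9orf89, VAMP2 and RASSF1. H2AFY and H2AFJ, the genes higher in Kasumi-1 in both conditions, were nearest to PON2 and YPEL3.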

How the data were processed

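Polyadenylated RNA of 8 libraries was sequenced from a TruSeq Stranded mRNA kit, per the labels' protocols. The authors deposited 1 table of FPKM values per gene and library, made with bcl2fastq 2.20.0, HISAT2 2.1.0 and Cufflinks 2.2.1 on hg19, per the submitters' processing notes. The annotation, the strand setting and library totals were not given in the sources used here. No counting interval could be set, and overlapping or antisense genes may share reads. Relative depth was taken from 480 genes under 0.3 FPKM. A value of 0 does not show absence.

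The log2(FPKM + 1) values were tested with limma 3.58.1 (R 4.3.3): 1 mean per group, all 8 libraries, 4 residual degrees of freedom, variance trend, Benjamini-Hochberg over genes that reached 1 FPKM in 2 or more libraries. The fit was also run on simulated data with few changed genes and independent noise. In the real data most genes were called in HL60 and same-numbered libraries deviated together. The simulation does not cover that setting. A two-sided permutation of 2 against 2 libraries cannot go below p = 0.33 and was not used.

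The members and lists were chosen with earlier results of these data known. All members shown are named, of each list up to 2 called genes per direction and line with the smallest adjusted p, and for each member the 3 nearest genes; 1 gene of the set and 1 nearest gene are not reported here. The promoter motifs and printed sequences were chosen after values were seen. All 8 symbols matched RefSeq. RefSeq windows were matched with both strands searched, and coding sequences are from GENCODE v29, aligned with Biopython 1.88. Alternatives were another pseudocount (0.1), filter (none, or FPKM of at least 5), rescalings, no trend, a replicate block, each library left out and each line alone.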

Additional observations from a re-analysis of the deposited data

Results flagged for a closer look

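The change with cinobufagin differed between Kasumi-1 and HL60, by the test of the difference itself (Kasumi-1 minus HL60, limma adjusted p under 0.05), for 6 of the 7 histone genes that passed the filter on low values within each line. The difference on the log2 scale was -1.40 for H3F3B, -1.01 for H2AFX, -0.89 for H2AFZ, -0.68 for H1FX, -0.54 for H2AFV and -0.52 for H3F3A. H2AFJ was also called, at 0.47, but its HL60 values were at or near 0, so this is its Kasumi-1 change set against them, and 8 alternatives ended the call. Of all genes tested 63.1% were called in the same test.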

How the results depend on the processing

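Of 661 values of the histone genes under an alternative, 604 kept direction and side of the threshold, 44 lost a call, 6 gained one and 7 changed sign. The cause of these was not tested. Some alternatives could not turn a sign. For a change within a line, leaving out a library of the other line kept the estimate and could only move the adjusted p. Fitting without the trend or with the replicate block kept the estimates too. The number of values kept is therefore in part fixed in advance. The sign changed for the difference of drug changes of H2AFY with median ratios (0.029), quantile normalization (0.074) and without 1 library (between -0.050 and 0.022 over the 8), for H2AFY in HL60 with a common sum (0.031), and for H3F3A between untreated lines without 1 library (between -0.012 and 0.084). Of 950 values of the other named genes, 840 were kept, 109 lost a call and 1 changed sign (HMGB1 in HL60, 0.069 with a common sum). Of 306 counts for lists, 254 stayed within 1.5 times. In Kasumi-1 the 3292 calls became 1654 to 2738 without 1 library and 1040 with the line fitted alone. Of the 8 histone genes, 6 were called in Kasumi-1, 2 to 5 without 1 library and 2 with the line fitted alone. H1FX and H3F3B were called in Kasumi-1 under every alternative tried. Higher genes were 38.5% of the calls in Kasumi-1, 50.5% after median ratios, 48.3% after quantile normalization and 30.9% with a common sum. In the difference of drug changes they were 47.6%, and 37.2% with a common sum, which moved the median of all genes there to -0.19, against -0.03, and that of Kasumi-1 minus HL60 with cinobufagin to -0.14, against 0.02. With a common sum the differences of H3F3B (-1.61) and H2AFZ (-1.10) lay below that of all genes. H2AFJ did not pass the filter at FPKM of at least 5.

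Same-numbered libraries deviated together with a correlation between 0.125 and 0.331 across genes, and between 0.392 and 0.522 without short RNAs. No label pairs them, so the 2 numbers were taken only as names. With the replicate block, 9787 genes were called in HL60 and 4749 in Kasumi-1, and H2AFY (adjusted p = 0.011) and H3F3A (adjusted p = 0.0478) gained a call in Kasumi-1. With 2 libraries a group and no read totals, small changes near the threshold are the least certain.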
